A study of Mus musculus with 15 samples.

Results

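The 9 transcription factors described here, Spi1, Cebpa, Cebpb, Cebpd, Klf2, Bach1, Bach2, Pparg and Nr1h3, were chosen by name as regulators of the monocyte and macrophage lineage. Each was matched by symbol to 1 Ensembl gene, so the group holds 9 of the 38924 genes in the tables, and all 9 passed the filter on low counts. The study sorted mononuclear phagocytes from naïve wild-type C57BL/6 mice, which the labels give as 6-8 weeks old, and 5 sorted subtypes with 3 libraries each were compared. The dendritic cells (DCs) were spleen CD8+ DC and spleen CD4+ DC, and from the lung-draining lymph node (LN) the CD103+ DC and the CD11b+ DC, all sorted as CD11c+ and MHCII+. The fifth subtype was the spleen Ly6C+ CD11b+ monocyte. The CD8+ and CD103+ cells are the DC1 lineage and the CD4+ and LN CD11b+ cells the DC2 lineage, and per the study's methods the LN cells were gated on high MHC class II as migratory DCs. Organs were digested with collagenase D, each library came from cells pooled over several mice, and LN and spleen came from different cohorts. The organ and the cohort therefore cannot be told apart, and p-values measure the spread between these pools only. No treatment was given, and no macrophage library was analysed here.

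Spi1 encodes PU.1, an ETS factor that myeloid cells and DCs both need, and its dose helps to set which of them a progenitor becomes. The C/EBP factors are leucine zipper proteins: Cebpa drives the granulocyte and monocyte progenitor, Cebpb acts in monocyte survival and inflammatory transcription, and Cebpd is induced in acute inflammation. Klf2 is a zinc finger factor that holds down inflammatory genes and directs trafficking receptors. Bach1 and Bach2 are repressors that pair with small Maf proteins. Heme releases Bach1 from the genes of heme breakdown and iron export, and Bach2 is known best from B and T lymphocytes. Pparg and Nr1h3 (LXR alpha) are nuclear receptors that bind DNA with an RXR partner, Pparg being best known in alveolar macrophages and Nr1h3 in cholesterol efflux and splenic macrophages.

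The promoter sequences of 4 members are shown because these genes carry the main contrasts below: Cebpb and Cebpa were higher in monocytes, Klf2 varied widely between libraries of one DC subtype, and Nr1h3 was highest in LN CD11b+ DC. Each runs 5′ to 3′ over the 250 bases before a RefSeq start site on the GRCm38.p6 assembly, read on the strand of the gene, and capitals mark motif matches on either strand. The windows are chr7:35119043-35119292 on the plus strand for Cebpa, chr2:167688665-167688914 on the plus strand for Cebpb, chr8:72318812-72319061 on the plus strand for Klf2, and chr2:91195036-91195285 on the minus strand for the first of the Nr1h3 windows. This Nr1h3 window lies inside the span of the counted gene, chr2:91184061-91202834, so it precedes an internal start site.
Cebpa: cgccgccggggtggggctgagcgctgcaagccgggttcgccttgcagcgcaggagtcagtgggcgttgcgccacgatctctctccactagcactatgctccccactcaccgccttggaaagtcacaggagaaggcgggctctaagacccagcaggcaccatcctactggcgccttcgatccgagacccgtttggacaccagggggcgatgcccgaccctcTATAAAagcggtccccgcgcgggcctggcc
Cebpb: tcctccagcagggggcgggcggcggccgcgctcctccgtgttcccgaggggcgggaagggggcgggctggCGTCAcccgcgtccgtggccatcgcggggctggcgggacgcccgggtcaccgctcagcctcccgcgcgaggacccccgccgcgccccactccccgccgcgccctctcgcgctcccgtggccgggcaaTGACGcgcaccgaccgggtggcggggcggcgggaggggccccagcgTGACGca
Klf2: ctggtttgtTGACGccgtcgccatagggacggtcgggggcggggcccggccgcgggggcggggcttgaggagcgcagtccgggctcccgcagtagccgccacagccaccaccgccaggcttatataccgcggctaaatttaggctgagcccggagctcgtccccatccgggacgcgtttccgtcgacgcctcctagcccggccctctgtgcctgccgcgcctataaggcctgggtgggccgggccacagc
Nr1h3: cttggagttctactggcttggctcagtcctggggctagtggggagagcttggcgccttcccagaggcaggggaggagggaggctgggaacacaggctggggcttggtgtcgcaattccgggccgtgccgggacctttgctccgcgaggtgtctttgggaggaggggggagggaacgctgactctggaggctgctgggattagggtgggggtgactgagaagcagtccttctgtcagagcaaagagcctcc
The motifs searched were TATAAA, the cAMP-responsive core TGACG, the C/EBP site TTGCNNAA, the PU.1 core GAGGAA, the Bach and Maf core TGCTGAG, the nuclear receptor core AGGTCA and the KLF box CACCC. Over the same 250 bases of 32851 promoters of the table they lay in 12.4%, 17.8%, 9.56%, 23.3%, 6.21%, 14% and 52% of promoters, and CACCC was left in lower case for that reason. Cebpa had TATAAA at bases -30 to -25. Cebpb had TGACG at -180 to -176 on the minus strand and at -53 to -49 and -7 to -3 on the plus strand, and Klf2 had it at -241 to -237. In the Nr1h3 window only CACCC was found, so it carries no capitals, which says only that the other letters are not in this window. The Cebpb window was 81.6% G and C, against 66.4% in Cebpa, 71.2% in Klf2, 63.6% in Nr1h3 and a median of 52.4% over the table. These matches describe letters only, not binding.

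The 15 libraries held 4531243 to 10233914 counts on genes and 15222 to 17693 detected genes. All 5 monocyte markers (Ly6c2, Ccr2, Csf1r, Fcgr1 and Itgam) were highest in the monocyte libraries, whose summed level was 5643 to 6163 CPM (read counts scaled to library size with TMM factors), against 21.1 to 1043 CPM in the DC libraries. Of these, Ly6c2 and Itgam stand for the sort antigens Ly6C and CD11b, so their direction follows the sort. Zbtb46, a factor of conventional DCs, had 310 to 535 CPM in the DC libraries and 6.45 to 7.47 CPM in the monocytes. LN CD103+ replicate 1 stood apart with a summed B cell marker level of 277 CPM, against 17.4 and 21.7 CPM in the other 2 libraries of that subtype. RNA of some other cell types is given beside results below. The 7 T cell markers summed to 107 to 146 CPM in LN CD103+ DC and 79.4 to 122 CPM in LN CD11b+ DC. In the spleen they summed to 4.18 to 13.9 CPM in CD8+ DC and 15.9 to 24.2 CPM in CD4+ DC. The part of T cell RNA in differences between LN and spleen was not tested. In these bulk samples, fewer cells of a type and less RNA per cell cannot be told apart.

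**Figure D1:**
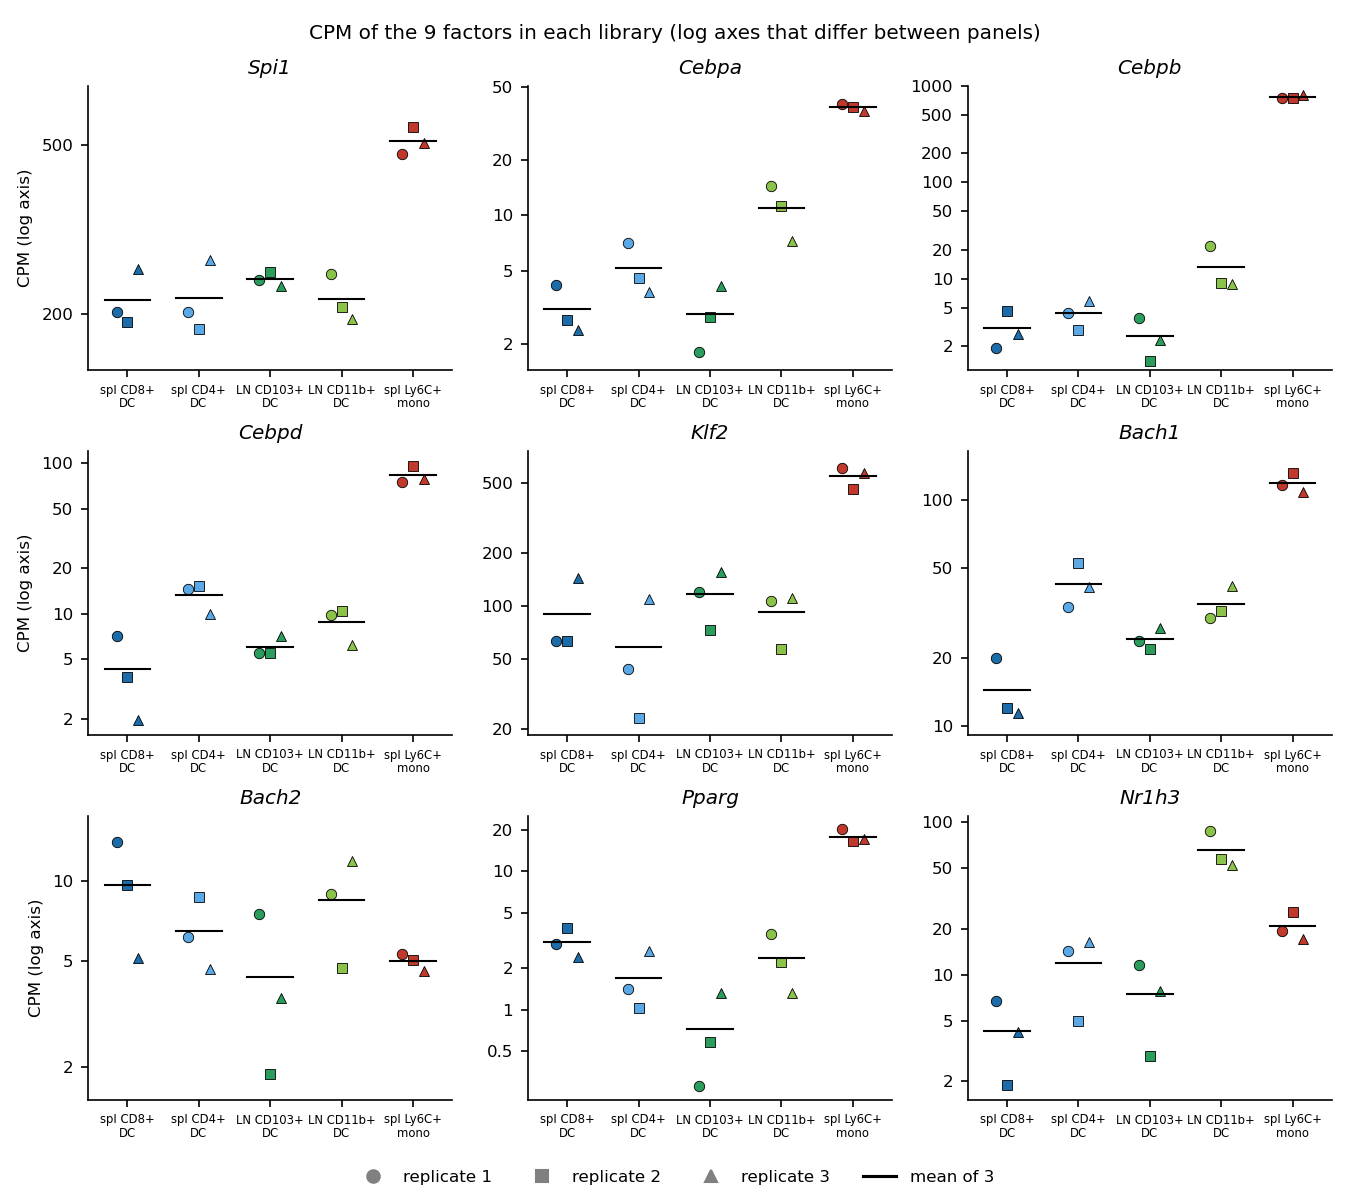
Levels of the 9 factors in each library as CPM on log axes that differ between panels, with marker shapes for the replicate numbers and bars for the mean of 3 libraries. Monocyte libraries lie above all DC libraries for Spi1, Cebpa, Cebpb, Cebpd, Klf2, Bach1 and Pparg, while Nr1h3 is highest in LN CD11b+ DC (65.8 CPM) and the Bach2 libraries of the subtypes overlap.

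Levels of different genes were compared per length, in the deposited TPM, which divides counts by transcript length. Spi1 was the most abundant of the 9 factors in all 4 DC subtypes, with means of 194 to 205 TPM, and Klf2 came next with 83.5 to 144 TPM. In the monocytes the order was different. Cebpb led with 1318 ± 67.1 TPM (SD, n = 3), followed by Klf2 with 772 ± 128 TPM, Spi1 with 487 ± 20.96 TPM and Cebpd with 183 ± 19.7 TPM. Cebpb was ranked 4 to 6 among the factors in the DCs, with 3.83 to 21.2 TPM. Nr1h3 took rank 3 in LN CD11b+ DC with 62.8 ± 18.8 TPM, and ranks 5, 6 and 8 in the other subtypes. Bach2 was the least abundant in 4 of the 5 subtypes, at 1.30 to 2.35 TPM in those, and in LN CD103+ DC Pparg was lower still at 0.838 TPM against 0.992 TPM.

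The comparison of monocytes with the mean of the 4 DC subtypes asked how the monocyte differs in these factors from the DCs. Of the 9 factors, 7 were higher in the monocytes and none was lower by edgeR's quasi-likelihood test with Benjamini-Hochberg adjustment, whereas 52.9% of the 14456 genes tested were called, 26.4% higher and 26.5% lower. The median log2 difference was 2.66 over the members and -0.06 over all genes tested. The libraries of the 7 factors did not overlap between monocytes and DCs. How many of all genes tested also lacked overlap was not counted.

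Spi1 (ENSMUSG00000002111, chr2:91082390-91115756, plus strand, mm10) had 475, 549 and 503 CPM in monocyte replicates 1, 2 and 3. Across the 12 DC libraries it had 185 to 269 CPM, so every monocyte library lay above every DC library. The log2 difference was 1.19 (SE 0.135, adjusted p = 5.38e-07), the smallest of the 7. Against the single DC subtypes it was 1.07 to 1.23. Within the DCs, Spi1 had means of 217 ± 33.8, 219 ± 44.1, 242 ± 9.55 and 218 ± 27.6 CPM (SD, n = 3) in spleen CD8+, spleen CD4+, LN CD103+ and LN CD11b+ DC. No DC comparison of Spi1 passed the threshold, and the 95% intervals of the neighbouring subtypes in the order of levels reached from -0.38 to 0.53 on the log2 scale at the widest.

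Cebpb (ENSMUSG00000056501, chr2:167688915-167690418, plus strand) showed the largest fitted difference of the 9. It had 758, 745 and 801 CPM in the monocytes, and between 1.40 CPM in LN CD103+ replicate 2 and 21.9 CPM in LN CD11b+ replicate 1 among the DCs. The groups were far apart in every library, with a log2 difference of 7.38 (SE 0.237, adjusted p = 2.61e-14) and a ratio of mean CPM of 132. The exon of Cebpb shares 20.7% of its length with Tmem189 on the other strand, and the unstranded counting assigned a read to both. Tmem189 had 183 to 744 counts in the DC libraries, more than the 12 to 204 of Cebpb in each of them, so the low DC levels of Cebpb are uncertain. In the monocytes Tmem189 reached 63.3 to 65.6% of the Cebpb counts.

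Cebpa (ENSMUSG00000034957, chr7:35119293-35121926, plus strand) had 40.3, 38.6 and 37.0 CPM in the monocytes. The DC libraries had 1.81 to 14.4 CPM, the 3 libraries of LN CD11b+ DC being the highest of them. The log2 difference was 3.01 (SE 0.225, adjusted p = 1.7e-09). Cebpd (ENSMUSG00000071637, chr16:15887286-15888466, plus strand) had 75.7, 96.9 and 79.2 CPM in the monocytes, against 1.95 to 15.2 CPM in the DC libraries, a log2 difference of 3.50 (SE 0.215, adjusted p = 1.09e-10). All 3 C/EBP members thus differed in one direction and without overlap.

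Among the other C/EBP genes, Cebpe, which drives the late steps of granulocytes, had 4.52, 2.92 and 5.66 CPM in the monocytes. It had 7 counts in all over the 12 DC libraries, and the ratio to the pooled DC level was 54.3 with a counting interval of 26.4 to 135, which covers counting error only. Cebpg, a partner without a transactivation domain, was higher in monocytes by 0.92 (adjusted p = 5.27e-05). All 7 measured C/EBP target genes of 8 listed were higher in monocytes. Their median log2 difference was 6.4. S100a8, a calcium-binding alarmin, had 35.8, 36.7 and 53.2 CPM in the monocytes and 4 counts in all the DC libraries. Csf3r, the G-CSF receptor, was higher by 6.40 on the log2 scale (adjusted p = 7.41e-12), and it also stands in the list of Spi1 targets. Beside these, all 7 neutrophil granule genes were highest in the monocyte libraries, with summed levels of 163 to 272 CPM against 0 to 2.43 CPM in the DCs, and Mpo and Elane were at 0 counts in all 12 DC libraries. The 5 markers of mature neutrophils summed to 85.6 to 117 CPM in the monocytes, 25.01 to 82.3 CPM in spleen CD4+ DC and at most 6.35 CPM in the other DCs. In the monocytes nearly all of that sum was Mmp8, at 84.3 to 117 CPM, while Retnlg had at most 0.389 CPM and Mmp9 and Stfa2l1 were at 0. In spleen CD4+ DC Retnlg, Mmp8 and Stfa2l1 were at 0 counts, so the sum there was Cxcr2 and Mmp9 only. The part of neutrophil gene expression in the C/EBP result was not tested.

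Klf2 (ENSMUSG00000055148, chr8:72319033-72321656, plus strand) had 612, 467 and 573 CPM in the monocytes. The 12 DC libraries had 23.2 to 157 CPM and none reached the monocytes. The log2 difference was 2.66 (SE 0.298, adjusted p = 4.64e-07). Of the 4 other KLF genes, 3 were higher in monocytes, with a median of 1.62, among them Klf13 by 2.70 (adjusted p = 2.73e-08) and Klf4, a factor of Ly6C+ monocyte development, by 1.82 (adjusted p = 3.76e-06). Of the 5 Klf2 targets, 4 were higher and 1 lower. Thbd, which encodes thrombomodulin, differed by 6.87 (adjusted p = 6.84e-10).

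Bach1 (ENSMUSG00000025612, chr16:87698945-87733346, plus strand) had 117, 132 and 109 CPM in the monocytes against 11.5 to 52.7 CPM in the DC libraries. It was higher in monocytes by 2.15 (SE 0.162, adjusted p = 1.94e-09). Bach2 (ENSMUSG00000040270, chr4:32238804-32586108, plus strand) had 5.31, 5.05 and 4.61 CPM in the monocytes and 1.87 to 14.1 CPM in the DCs. Its groups overlapped, the log2 difference was -0.47 with a 95% interval of -1.29 to 0.35, and the adjusted p was 0.327. The paralogs therefore gave different calls, a difference between them that was not tested. Of the 7 CNC and small Maf genes, which bind the same DNA elements, 4 were higher and 2 lower in monocytes. Nfe2, the CNC factor of platelets and red cell precursors, had 119, 92.7 and 153 CPM in the monocytes and at most 1.83 CPM in any DC library, a log2 difference of 7.94 (adjusted p = 1.63e-14). Nfe2l2, the activator NRF2 that competes with Bach1, was higher by 2.34 (adjusted p = 3.46e-11). The 10 heme, iron and antioxidant genes that Bach1 represses were split, 4 higher, 2 lower and 4 below the threshold. Their median was 0.48, or 0.18 when Nqo1, absent from 1 DC subtype, was taken as a ratio of pooled levels. Blvrb, a biliverdin reductase, was higher by 1.80 (adjusted p = 5.79e-05).

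Pparg (ENSMUSG00000000440, chr6:115361221-115490401, plus strand) had 20.1, 16.4 and 16.97 CPM in the monocytes. It had 0.279 to 3.91 CPM in the DC libraries, again without overlap, and differed by 3.35 (SE 0.305, adjusted p = 2.82e-08). Its partner Rxra had 99.7, 80.5 and 108 CPM in the monocytes and was higher by 1.99 (adjusted p = 1.71e-07). In all, 6 of the 7 measured nuclear receptor partners and coregulators of 9 listed were higher in monocytes and none was lower, with a median of 1.28. Of 7 measured Pparg targets, 4 were higher and 2 lower, including Cpt1a, which carries fatty acids into mitochondria, by 1.81 (adjusted p = 1.31e-08) and the lipid droplet protein gene Plin2 by 1.76 (adjusted p = 6.66e-08). The summed alveolar macrophage list was 820 to 1059 CPM in the monocytes, of which Chil3 made up 672 to 945 CPM, while Car4 was at 0 in all 3 libraries. The part of these genes in the Pparg result was not tested.

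Nr1h3 (ENSMUSG00000002108, chr2:91184061-91202834, minus strand) had 19.3, 25.6 and 17.2 CPM in the monocytes, below LN CD11b+ DC and above the other DC libraries. Against the DC mean it differed by 0.72 (95% interval 0.01 to 1.44, adjusted p = 0.082), which averages on the log scale over DC subtypes on either side of the monocytes. The ratio of arithmetic mean CPM pointed the other way, at 0.926. Nr1h2, the other LXR, was higher in monocytes by 0.74 (adjusted p = 0.00888) with overlapping libraries. Of the 10 LXR targets, 2 were higher and 4 lower, with a median of -0.35, beside 26.4% higher and 26.5% lower of all genes. Apoe, the apolipoprotein that accepts effluxed cholesterol, was higher by 2.70 (adjusted p = 1.81e-08).

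**Figure D2:**
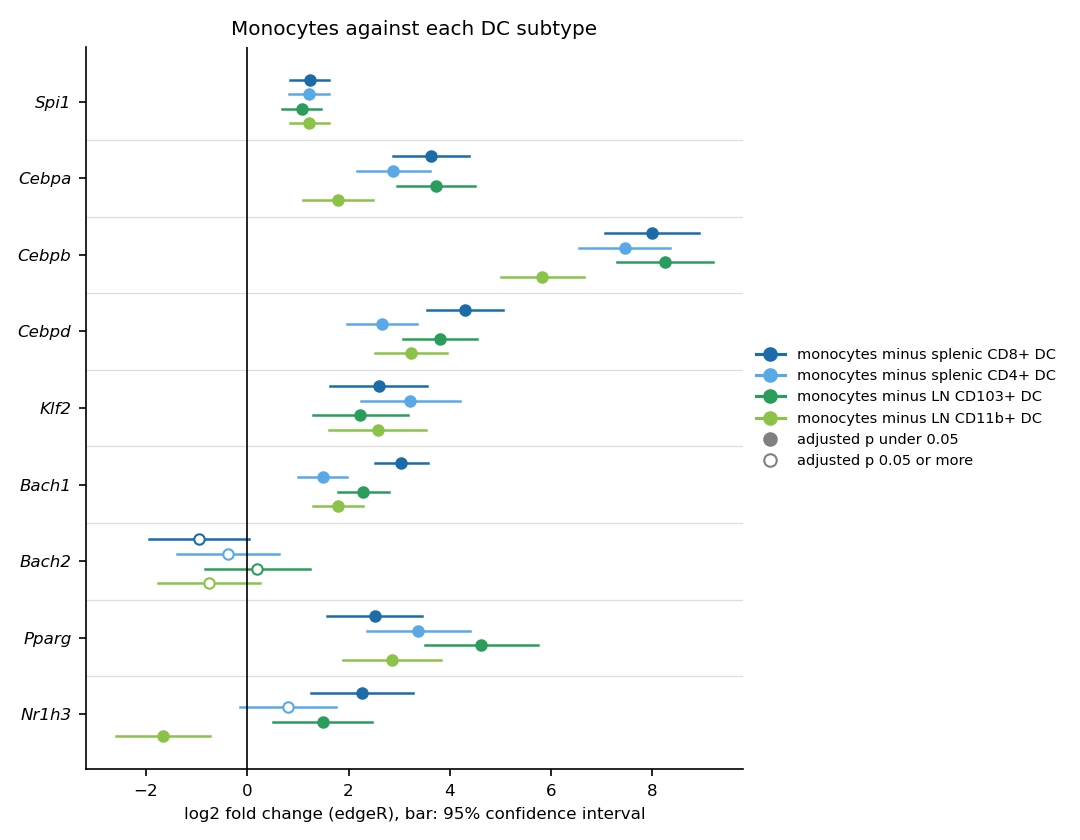
Log2 differences of the 9 factors between monocytes and each DC subtype, with 95% confidence intervals and filled points for adjusted p under 0.05. Points of 7 factors lie right of 0 in all 4 comparisons, while Nr1h3 lies right of 0 in 3 and left of it against LN CD11b+ DC (-1.67).

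Taken one DC subtype at a time, 8 factors were higher in monocytes than in spleen CD8+ DC and none lower, where 42.1% of all genes were called, 20.4% higher and 21.7% lower. Against spleen CD4+ DC 7 were higher and none lower (48% called, 23.8% higher and 24.2% lower). Against LN CD103+ DC 8 were higher and none lower (53.2% called, 24.6% higher and 28.6% lower). Against LN CD11b+ DC 7 were higher and 1 lower (47.8% called, 21.3% higher and 26.5% lower). These 4 comparisons share the 3 monocyte libraries. The factor that moved between them was Nr1h3. It was higher in monocytes than in spleen CD8+ DC by 2.27 (adjusted p = 0.000867) and than in LN CD103+ DC by 1.49 (adjusted p = 0.0113). Against spleen CD4+ DC the difference of 0.80 did not pass (adjusted p = 0.154), although the libraries did not overlap. It passed with the replicate number as a block (0.975, adjusted p = 0.0398) and with no filter on low counts (0.81, adjusted p = 0.0251). LN CD11b+ DC were above the monocytes (log2 difference -1.67, adjusted p = 0.00436). Without LN CD103+ replicate 2 the difference from LN CD103+ DC was 1.09 (adjusted p = 0.0622). For the C/EBP factors the distance to LN CD11b+ DC was the shortest for Cebpa (1.79) and Cebpb (5.82), and that to spleen CD4+ DC for Cebpd (2.66).

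The DC subtypes were then compared with each other by lineage and by organ. In the LN, 4 factors were lower in DC1 (CD103+) than in DC2 (CD11b+) and none was higher, where 12.9% of all genes were called, 7.73% lower and 5.22% higher. The 4 were Nr1h3, Cebpb, Cebpa and Pparg. In the spleen, 3 factors were lower in DC1 (CD8+) than in DC2 (CD4+) and none was higher, where 27.4% of all genes were called, 14.4% lower and 13.1% higher. Those were Bach1, Cebpd and Nr1h3.

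Nr1h3 had 87.7, 57.5 and 52.4 CPM in LN CD11b+ DC and 11.6, 2.93 and 7.79 CPM in LN CD103+ DC. In the spleen it had 14.3, 4.94 and 16.3 CPM in CD4+ DC and 6.69, 1.89 and 4.24 CPM in CD8+ DC. LN CD11b+ DC lay above all other libraries, while spleen CD4+ and CD8+ DC overlapped. DC1 minus DC2 was -3.16 in the LN (SE 0.478, adjusted p = 0.000156) and -1.46 in the spleen (SE 0.486, adjusted p = 0.0314). The spleen call was lost without spleen CD8+ replicate 2 or 3 or spleen CD4+ replicate 1 or 3 (adjusted p = 0.083 to 0.102), with limma at either pseudocount (0.072 and 0.0778) and in a fit of these 2 subtypes only (0.06). Between organs Nr1h3 was higher in LN than in spleen DC2 by 2.47 (SE 0.46, adjusted p = 0.000378), whereas in DC1 the difference of 0.77 did not pass (adjusted p = 0.217). The test of whether the organ difference depends on lineage gave -1.70 (adjusted p = 0.114), but passed with the replicate block (-1.77, adjusted p = 0.04), with no filter on low counts (-1.69, adjusted p = 0.00269) and without LN CD103+ replicate 1 (-2.19, adjusted p = 0.0493). Over the mean of both lineages Nr1h3 was the only factor to differ between organs, by 1.62 (adjusted p = 0.0005), where 49.9% of all genes were called, 26.5% higher and 23.4% lower.

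Of the 10 LXR targets, 4 were lower in LN DC1 than in LN DC2 and 4 were higher in LN than in spleen DC2, with none called in the other direction. The medians were -0.56 and 0.75, against -0.01 and 0.05 over all genes. Abca1, the pump that loads cholesterol onto apolipoproteins, had 49.7, 44.3 and 27.8 CPM in LN CD11b+ DC and at most 15.1 CPM in any other library. Mertk, a receptor for apoptotic cells, was lower in LN DC1 (log2 difference -4.92, adjusted p = 1.16e-06), and Abcg1, a second cholesterol pump, was higher in LN than in spleen DC2 by 1.91 (adjusted p = 2.27e-06). Abcg1 was not ordered as Nr1h3 across subtypes. LN CD103+ DC had 539, 775 and 735 CPM, 2 of which lay above all LN CD11b+ DC libraries. Beside this, C1qb, a complement gene of macrophages, had 280, 202 and 134 CPM in LN CD11b+ DC, 44.8 to 98.2 CPM in spleen CD4+ DC, 11.6 to 15.2 CPM in LN CD103+ DC and 6.58 to 8.16 CPM in the monocytes. Of 8 resident macrophage genes, 4 were highest in LN CD11b+ DC, 3 in spleen CD4+ DC and 1 in monocytes, with summed levels of 763 to 1102, 1112 to 1401 and 535 to 639 CPM and none at 0. Replicate 1 of LN CD11b+ DC was the highest of its subtype in Nr1h3, Cebpa, Cebpb, C1qb and Abca1. The part of macrophage RNA in these results was not tested.

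**Figure D3:**
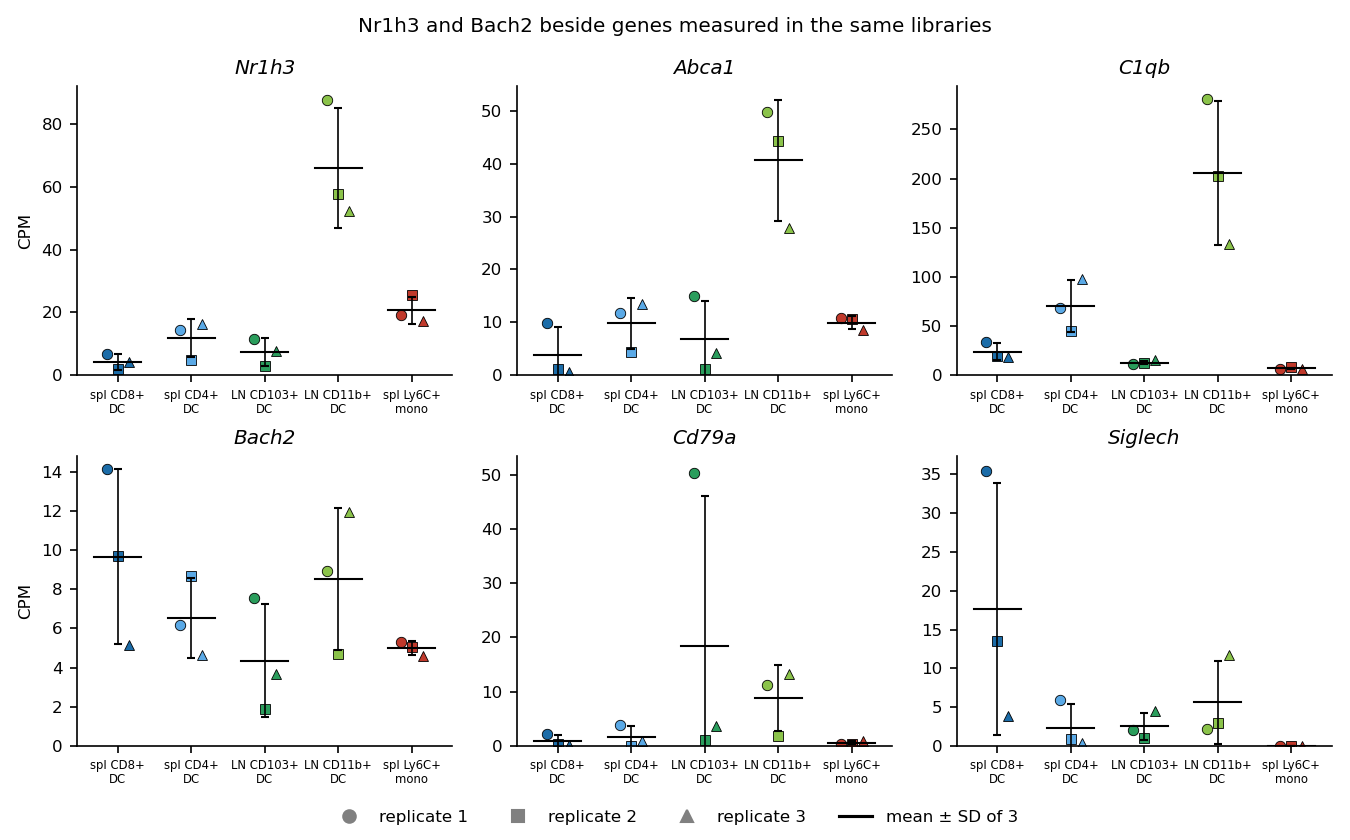
Levels in each library of Nr1h3, the LXR target Abca1 and Bach2, beside C1qb, Cd79a and Siglech as marker genes of other cell types, in CPM. C1qb reaches 280 CPM in the LN CD11b+ library with the most Nr1h3, and Cd79a reaches 50.4 CPM in the LN CD103+ library with the most Bach2.

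Cebpa and Cebpb showed one pattern among the DCs, being highest in LN CD11b+ DC. Cebpa had 14.4, 11.3 and 7.29 CPM there and 1.81, 2.81 and 4.14 CPM in LN CD103+ DC. Cebpb had 21.9, 8.94 and 8.84 CPM and 3.91, 1.40 and 2.32 CPM. Neither overlapped, and DC1 minus DC2 in the LN was -1.94 for Cebpa (SE 0.359, adjusted p = 0.00106) and -2.42 for Cebpb (SE 0.408, adjusted p = 0.000449). In the spleen the same contrasts were -0.75 and -0.54 and did not pass (adjusted p = 0.135 and 0.379). Between organs both were higher in LN than in spleen DC2, Cebpa by 1.09 (adjusted p = 0.0192) and Cebpb by 1.63 (adjusted p = 0.00292), which with Nr1h3 made 3 factors higher and none lower, where 33.1% of all genes were called, 19.3% higher and 13.8% lower. The Cebpa call was lost without spleen CD4+ replicate 2 or 3 or LN CD11b+ replicate 1 (adjusted p = 0.0554 to 0.108) and in a fit of these 2 subtypes only (0.0756). The organ difference of Cebpb depended on the lineage by -1.89 (SE 0.595, adjusted p = 0.0475), a call close to the threshold that was lost without spleen CD8+ replicate 2 or 3, spleen CD4+ replicate 1 or 2, LN CD103+ replicate 2 or 3 or LN CD11b+ replicate 1 (adjusted p = 0.0638 to 0.155), with RLE factors (0.0514) and with limma at either pseudocount (0.0708 and 0.0876). The overlap with Tmem189 applies to these low Cebpb levels.

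The C/EBP targets were lower in LN DC1 than in LN DC2 in 4 of 7 cases, and in 4 of 7 in the spleen, with none higher. Lyz2, the lysozyme of myeloid cells, differed by -4.14 in the LN (adjusted p = 2.68e-07) and -1.52 in the spleen (adjusted p = 0.00153). Among the 10 other monocyte and macrophage factors, 7 were lower in LN DC1 and 5 in spleen DC1, and none was higher. Zeb2, a repressor needed by monocytes and DC2, differed by -4.15 in the LN (adjusted p = 4e-07). Beside these results, the 5 monocyte markers, one of which is the sort marker Itgam, summed to 560 to 666 CPM in LN CD11b+ DC against 21.1 to 37.1 CPM in LN CD103+ DC, and to 692 to 1043 CPM in spleen CD4+ DC against 138 to 205 CPM in spleen CD8+ DC. None of the 5 was at 0 in these subtypes, and their part in the lineage differences of Cebpa, Cebpb, their targets and Zeb2 was not tested.

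Cebpd and Bach1 differed by lineage in the spleen. Cebpd had 14.7, 15.2 and 9.99 CPM in spleen CD4+ DC, above the 7.05, 3.78 and 1.95 CPM of CD8+ DC. DC1 minus DC2 was -1.64 (SE 0.347, adjusted p = 0.00167). Bach1 had 33.6, 52.7 and 41.5 CPM in CD4+ DC and 19.96, 12.01 and 11.5 CPM in CD8+ DC, also without overlap, and differed by -1.55 (SE 0.241, adjusted p = 9.85e-05). In the LN the contrasts kept their sign without passing, at -0.57 for Cebpd (adjusted p = 0.325) and -0.50 for Bach1 (adjusted p = 0.189), although the Bach1 libraries did not overlap there either. Bach1 was also higher in LN than in spleen DC1, by 0.75 (adjusted p = 0.0159). In that comparison Bach1 was called higher and Pparg lower, where 45.6% of all genes were called, 23.8% higher and 21.8% lower. The Bach1 call was lost without spleen CD8+ replicate 2 or 3 or LN CD103+ replicate 3 (adjusted p = 0.06 to 0.0826). The dependence of its organ difference on lineage was 1.05 (adjusted p = 0.0501), which passed with the replicate block (0.044), RLE factors (0.0437), DESeq2 (0.0206) and no filter (0.0439), and without spleen CD8+ replicate 1, spleen CD4+ replicate 1 or LN CD11b+ replicate 3 (adjusted p = 0.011 to 0.0348).

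Of the 10 genes repressed by Bach1, 3 were higher and 3 lower in LN than in spleen over the mean of both lineages, near the 26.5% higher and 23.4% lower of all genes. Slc40a1, the iron exporter ferroportin, differed by -4.80 (adjusted p = 2.02e-10), Hmox1, which breaks down heme, by -3.29 (adjusted p = 1.56e-09), and the cystine transporter gene Slc7a11 by 3.89 (adjusted p = 7.65e-12). Erythroid genes stood at 27.4 to 235 CPM in the spleen DC libraries against 0.663 to 57.6 CPM in the LN, which was not tested as a part of this difference.

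Pparg was low in every DC subtype and lowest in LN CD103+ DC, with 0.279, 0.585 and 1.33 CPM from 15 counts in all. LN CD11b+ DC had 3.55, 2.20 and 1.33 CPM, and spleen CD8+ DC 2.99, 3.91 and 2.405 CPM. The highest LN CD103+ library, with 8 counts, met the lowest LN CD11b+ library, with 6 counts, at 1.33 CPM, and all LN CD103+ libraries lay below spleen CD8+ DC. DC1 was lower than DC2 in the LN (log2 difference -1.77, SE 0.547, adjusted p = 0.0391), and LN DC1 was lower than spleen DC1 (-2.11, SE 0.536, adjusted p = 0.00338). The first call was lost without LN CD103+ replicate 1 or 2 or LN CD11b+ replicate 1 or 2 (adjusted p = 0.0625 to 0.191), with limma on log2(TPM + 1) (0.0508) and in a fit of these 2 subtypes only (0.135). The organ difference depended on lineage, with the opposite sign in DC2 (0.53, adjusted p = 0.458), by -2.63 (SE 0.732, adjusted p = 0.0248). For this test 2 of the 9 factors, Cebpb and Pparg, were called, both with a negative value, where 11.2% of all genes were called, 6.03% negative and 5.17% positive. Rxra gave -1.77 in the same test (adjusted p = 0.0104). For Rxra LN minus spleen DC1 was -1.50 (adjusted p = 0.000549).

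Of the 7 measured Pparg targets, 3 were lower and 1 higher in LN DC1 than in LN DC2, with a median of -0.03. Fabp4, a fatty acid carrier, differed by -4.00 (adjusted p = 2.18e-05) and Lpl, lipoprotein lipase, by -4.57 (adjusted p = 0.000116). Cd36, a fatty acid transporter, was higher in DC1 in both organs, by 2.01 in the LN (adjusted p = 0.000222) and 5.19 in the spleen (adjusted p = 1.02e-08). For LN minus spleen in DC1, where Pparg was lower, 1 of the 7 targets was lower and 2 were higher, with a median of 0.15. The alveolar macrophage list, which holds Fabp4, summed to 80.2 to 98.3 CPM in LN CD11b+ DC and 9.13 to 21.4 CPM in LN CD103+ DC with Car4 at 0 in both, and its part in the Pparg difference was not tested.

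Bach2 gave no call in any comparison with all libraries, the filter on low counts and no replicate block. Its levels were 14.1, 9.71 and 5.15 CPM in spleen CD8+ DC, 6.19, 8.69 and 4.66 CPM in spleen CD4+ DC, and 8.93, 4.69 and 11.9 CPM in LN CD11b+ DC. LN CD103+ DC had 7.54, 1.87 and 3.65 CPM, the library with 7.54 CPM being replicate 1. All DC subtypes overlapped, and the test for any difference among the 5 subtypes, passed by 73.5% of genes and by the other 8 factors, gave an adjusted p of 0.147. In LN CD103+ DC the B cell marker Cd79a was highest in the same library as Bach2. It had 50.4, 1.05 and 3.65 CPM there and 11.2, 1.91 and 13.3 CPM in LN CD11b+ DC. Of the 7 B cell markers 3 were highest in LN CD103+ DC, 2 in spleen CD4+ DC, and 1 each in spleen CD8+ and LN CD11b+ DC. Their sum was 264 to 347 CPM in spleen CD4+ DC, where Pax5 was at 0 counts, and 17.4 to 277 CPM in LN CD103+ DC. In spleen CD8+ DC, where 3 of 5 plasmacytoid DC markers were highest and their sum was 161 to 268 CPM, the plasmacytoid DC gene Siglech had 35.5, 13.5 and 3.89 CPM. Without LN CD103+ replicate 1, LN minus spleen DC1 was -1.83 for Bach2 (adjusted p = 0.00879), where all libraries gave -1.15 (adjusted p = 0.0573), and the test for any difference gave an adjusted p of 0.0297. The organ difference in DC1 also passed without spleen CD8+ replicate 3 (-1.46, adjusted p = 0.0233), with no filter (-1.16, adjusted p = 0.0233) and with the replicate block (-1.19, adjusted p = 0.0392). Monocytes minus spleen CD8+ DC passed without spleen CD8+ replicate 3 (-1.26, adjusted p = 0.0484) and in a fit of these 2 subtypes only (-0.95, adjusted p = 0.048). The part of B cell and plasmacytoid RNA in these values was not tested.

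Klf2 varied widely within DC subtypes, with 44.2, 23.2 and 109.5 CPM in spleen CD4+ DC. It had 63.8, 63.5 and 144.7 CPM in spleen CD8+ DC, 121, 73.0 and 157 CPM in LN CD103+ DC, and 108, 57.5 and 112 CPM in LN CD11b+ DC. In all 4 subtypes replicate 3 was the highest and replicate 2 the lowest, which held for none of the other 8 factors in all 4. The DC groups overlapped and no DC comparison of Klf2 passed. With the replicate number as a block, Klf2 passed in 3 comparisons of subtypes whose same-numbered libraries deviated together. DC1 was above DC2 in the spleen by 0.73 (adjusted p = 0.0457), LN above spleen DC2 by 0.81 (adjusted p = 0.0267), and spleen CD4+ DC minus LN CD103+ DC was -1.13 (adjusted p = 0.00212). LN minus spleen over both lineages also passed with the block, at 0.60 (adjusted p = 0.013). Leaving out spleen CD4+ replicate 3 also gave calls, with 1.42 for DC1 minus DC2 in the spleen (adjusted p = 0.015) and 1.45 for LN minus spleen DC2 (adjusted p = 0.0114). Without the block the differences passing with it were 0.62, 0.65, -0.99 and 0.51 in the order given (adjusted p = 0.314, 0.285, 0.0736 and 0.185). With no filter on low counts and no block they passed as well. The values were then 0.62, 0.63, -0.98 and 0.49 in the same order (adjusted p = 0.0441, 0.0345, 0.000185 and 0.00981). The calls of Klf2 among the DCs therefore also depended on the filter.

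**Figure D4:**
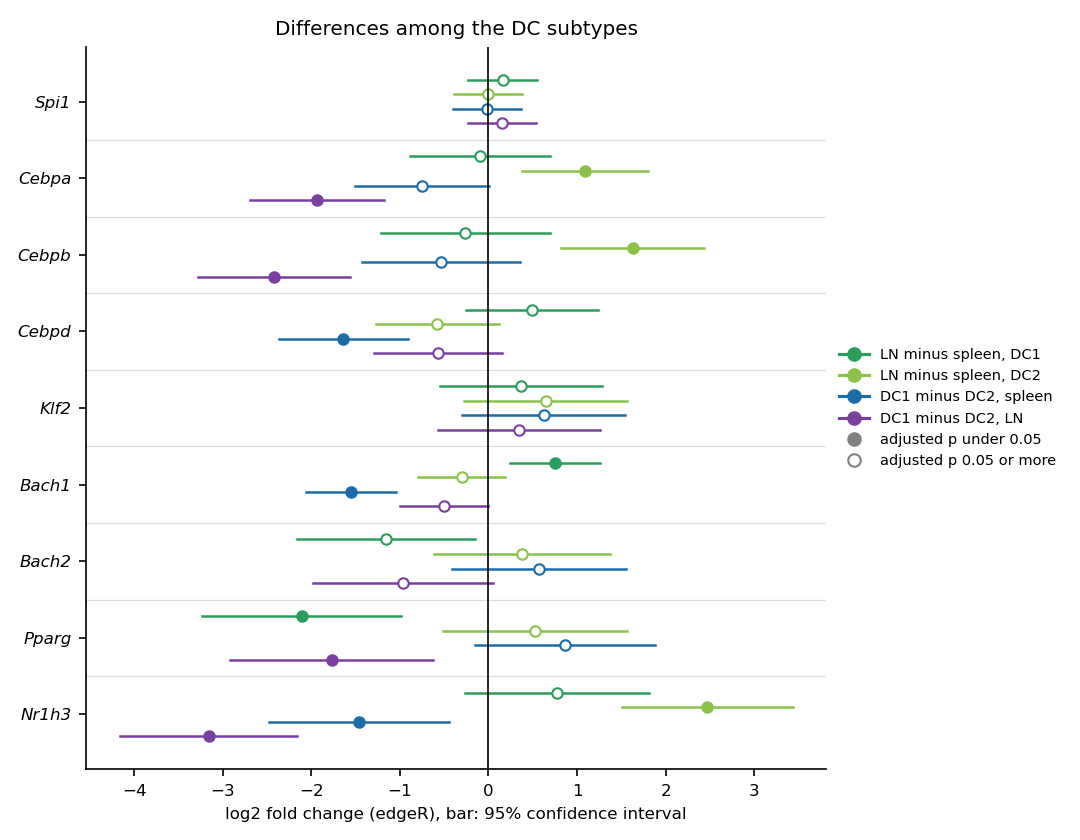
Log2 differences of the 9 factors between DC subtypes by lineage and by organ, with 95% confidence intervals and filled points for adjusted p under 0.05. Nr1h3, Cebpb, Cebpa and Pparg lie left of 0 for DC1 minus DC2 in the LN, and Spi1 stays within 0.16 of 0 in each of these 4 contrasts.

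The remaining pairs crossed lineage and organ. Spleen CD8+ DC were below LN CD11b+ DC in 5 factors and above in none (39.9% of all genes called, 22.5% lower and 17.3% higher), with Nr1h3 at -3.93 (adjusted p = 4.46e-06), Cebpb at -2.16 (adjusted p = 0.000219), Cebpa at -1.84 (adjusted p = 0.000375), Bach1 at -1.25 (adjusted p = 0.000396) and Cebpd at -1.06 (adjusted p = 0.0215). Spleen CD4+ DC were above LN CD103+ DC in 2 factors and below in none (47% of all genes called, 22.2% higher and 24.8% lower), Cebpd by 1.15 (adjusted p = 0.00944) and Bach1 by 0.80 (adjusted p = 0.00894). The Cebpd call against LN CD11b+ DC was lost without spleen CD8+ replicate 2 or 3 or LN CD11b+ replicate 1 or 2 (adjusted p = 0.0603 to 0.102) and in a fit of these 2 subtypes only (0.085).

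The relatives of Spi1 were ordered differently from it. Spib, an ETS factor of lymphocytes and plasmacytoid DCs, had 1.26 to 1.45 CPM in the monocytes, against 7.79 to 14.7 CPM in spleen CD8+, 27.1 to 33.8 CPM in spleen CD4+, 73.3 to 120 CPM in LN CD103+ and 95.9 to 98.1 CPM in LN CD11b+ DC. It was lower in monocytes (log2 difference -4.95, adjusted p = 4.18e-11) and higher in LN than in spleen in both lineages, by 3.23 in DC1 (adjusted p = 6.82e-09) and 1.71 in DC2 (adjusted p = 1.42e-05). Spic, the factor of red pulp macrophages, was lower in LN DC1 than in LN DC2 (-1.61, adjusted p = 0.0128). Of the 9 Spi1 targets, 8 were higher in monocytes and Flt3, the DC growth factor receptor, was lower (-3.84, adjusted p = 2.02e-09), for a median of 4.12. Over all genes 26.4% were higher and 26.5% lower. In the LN 7 of the 9 targets were lower in DC1 than in DC2, with a median of -3.53, where Spi1 itself differed by 0.15 (adjusted p = 0.673). Over all genes 7.73% were lower and 5.22% higher in that comparison. The targets include Itgam, whose product CD11b is a sort marker of the monocytes, LN CD11b+ DC and, per the study, spleen CD4+ DC, so its direction follows the sort. Csf1r and Fcgr1 in this list stand also among the monocyte markers.

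**Figure D5:**
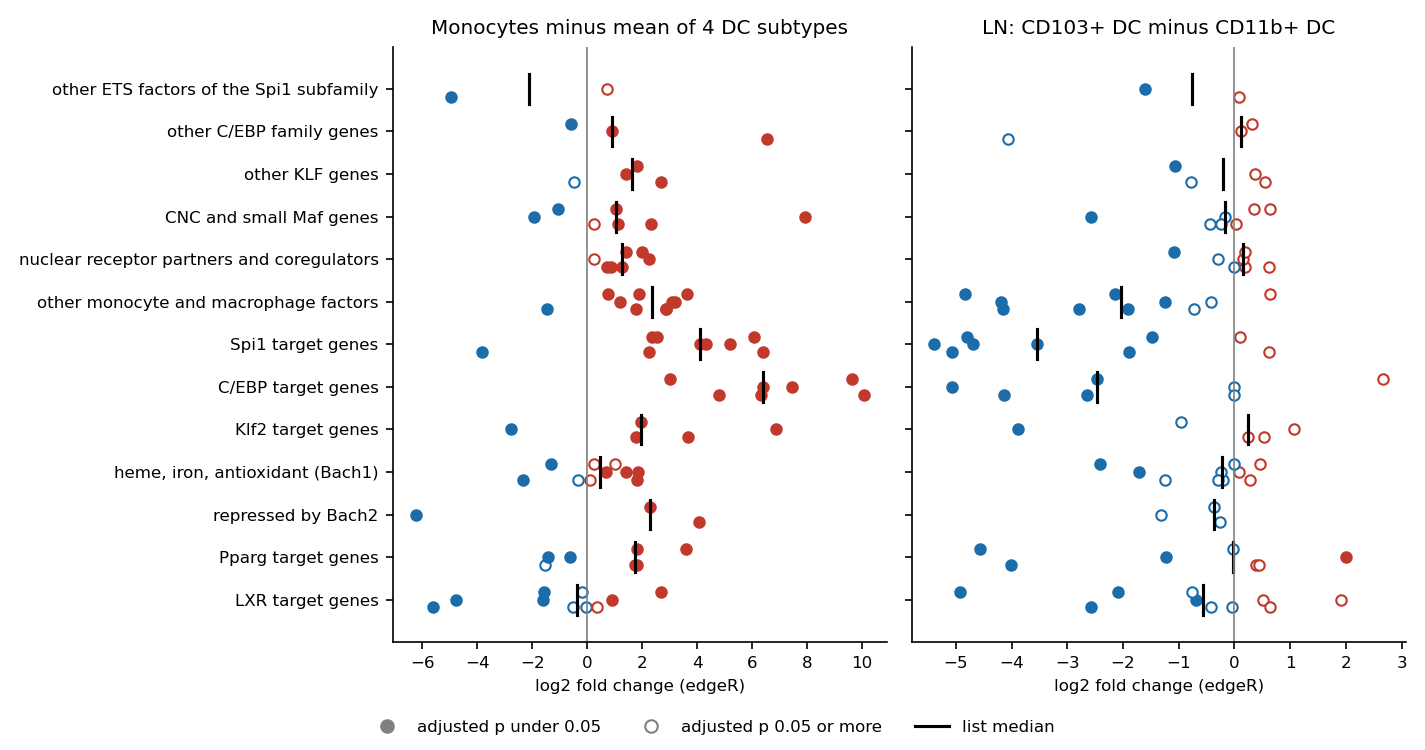
Fitted log2 differences of related and target genes, 1 point a gene and filled for adjusted p under 0.05, with a bar at the median of each list, for monocytes minus the DC mean and for LN DC1 minus LN DC2 (points of genes at 0 counts in a subtype depend on the prior count). Of the 9 Spi1 targets 8 are higher in monocytes and 7 are lower in LN DC1 than in LN DC2, while the 10 LXR targets split 2 higher and 4 lower in monocytes. The Spi1 targets include the sort marker Itgam.

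The genes whose levels followed each factor most closely were taken by Pearson's r of log2 CPM over the 15 libraries, among 8856 or 8857 genes of at least 10 CPM on average. Because the libraries form 5 subtypes, and monocytes stand apart in most members, r mainly describes subtype means and carries no p. For Nr1h3 the closest were Abca1 (r = 0.913) and Axl (r = 0.875), both highest in LN CD11b+ DC. For Pparg they were Rxra (r = 0.95) and Tmem38b (r = 0.948). Cebpb was followed by Xdh (r = 0.986), Cebpa by Evi5 (r = 0.975), Cebpd by Mindy2 (r = 0.973), Bach1 by 6430548M08Rik (r = 0.979), Spi1 by Gpr108 (r = 0.976) and Klf2 by Ppm1a (r = 0.966). Bach2 had the weakest, Soga1 with r = 0.768.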

How the data were processed

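RNA was measured by poly(A) RNA-seq (SMARTer libraries, Ion Torrent) in 5 sorted subtypes of 3 libraries. Per the study's methods, the authors discarded short reads, aligned with STAR 2.4.0j to mm10 and assigned reads with a single alignment to Ensembl genes by featureCounts (Subread 1.5.2), without strand, a read over several genes counting for each. The deposited count values are these raw counts, which hold 4531243 to 10233914 reads per library. The authors also deposited TPM, that is, counts divided by gene length and scaled to one total per library. These were used for levels between genes only. Counts of the 2 runs of each monocyte library were summed by the authors.

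Genes over 1 CPM in at least 3 libraries (14456 of 38924) were fitted with edgeR 4.0.16 (R 4.3.3), with TMM factors, a mean per subtype over all 15 libraries, the quasi-likelihood test and Benjamini-Hochberg adjustment over all genes tested at 0.05. All p-values in the text are from this test unless another is named. Intervals of ratios against few counts cover counting error only. The script was tested on simulated counts. Alternatives were RLE factors, DESeq2 1.42.0, no filter, limma 3.58.1 on log2(TPM + 1) and log2(TPM + 0.1), only the subtypes compared, a replicate block, single monocyte runs and leaving out each library. Promoters are from RefSeq (GRCm38.p6); 7 of 9 members had a window.

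The members and lists were chosen with earlier results of these data known. Named were the members, their closest relatives, at most 2 genes per list and direction with the largest called change (at least 10 CPM in the higher group, libraries not overlapping), the 2 genes most correlated with each member, and cell type markers. Same-numbered libraries deviated together in spleen CD8+ with CD4+ DC, LN CD103+ with CD11b+ DC, and spleen CD4+ with either LN subtype. Every correlation of deviations from the group mean was over 0.1 in these. Between spleen CD8+ DC and either LN subtype the correlations were 0.0163 to 0.182, and the same number was again the best match. The edgeR test behind the calls used no replicate block, so its p-values leave out any such pairing. The block was an alternative only. The labels do not say what a number marks. Some genes that the naming rule picks are not reported here.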

Additional observations from a re-analysis of the deposited data

Results flagged for a closer look

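For 2 factors the difference between LN and spleen differed between the DC lineages by edgeR's interaction test. LN minus spleen in DC1 less that in DC2 was -1.89 on the log2 scale for Cebpb (adjusted p = 0.0475) and -2.63 for Pparg (adjusted p = 0.0248). Neither call held when only the DC subtypes were fitted (adjusted p = 0.121 and 0.0865), and Pparg lost it without spleen CD8+ replicate 2, LN CD103+ replicate 1 or 2, or LN CD11b+ replicate 1 (adjusted p = 0.0575 to 0.0941). With 3 libraries a subtype, single libraries were not tested as outliers.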

How the results depend on the processing

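No called value changed sign under the alternatives run. The 7 factors higher in monocytes than in the DC mean were called under every alternative run, and over all comparisons and alternatives 2044 values of the members, these included, kept their side of the threshold, 56 passed it and 42 lost it. For LN minus spleen over both lineages, 1 factor was called, against 2 with DESeq2, 3 with no filter on low counts, 2 with the replicate block and 1 to 3 leaving out 1 library. For LN minus spleen in DC1, 2 were called, against 3 with no filter, 3 with the replicate block and 1 to 3 leaving out 1 library. For the lineage by organ interaction 2 were called, against 0 fitting only the subtypes compared, 1 with limma at either pseudocount, 3 with DESeq2, 4 with no filter, 4 with the replicate block and 0 to 4 leaving out 1 library. For spleen CD4+ DC minus LN CD103+ DC 2 were called, against 4 with limma on log2(TPM + 0.1), 4 with no filter and 2 to 4 leaving out 1 library. The genes called in the comparison DC1 minus DC2, LN, 1872 in all, were 1238 to 1531 leaving out 1 library, the lowest without LN CD103+ replicate 2. By Spearman's rho, 10 of the 18 most similar genes were among the 20 highest. Nr1h3 in monocytes minus the DC mean passed with the block (0.89, adjusted p = 0.0129) and with no filter (0.74, adjusted p = 0.0041). It also passed without spleen CD8+ replicate 1 or LN CD103+ replicate 1 (0.84 and 0.85, adjusted p = 0.0428 and 0.0373). Over both lineages, Cebpb, Klf2 and Pparg passed for LN minus spleen without some single DC libraries (adjusted p = 0.00833 to 0.0489), and Cebpd passed in DC1 without spleen CD8+ replicate 1 (1.08, adjusted p = 0.021). The cause of these changes was not tested. Levels under about 10 CPM rest on few counts, as for Pparg in LN CD103+ DC with 15 counts in all.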
